A study of Homo sapiens with 12 samples.

Results

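Immune checkpoint ligands are surface or secreted proteins through which a tumour cell restrains the immune cells that meet it. The 8 genes described here, CD274, PDCD1LG2, CD276, CD47, PVR, NECTIN2, LGALS9 and SIGLEC15, were taken by their symbols from the deposited count and FPKM tables, which list 58735 genes. All 8 were found, and all 8 were among the 16218 genes tested after a filter on low counts. LGALS9 passed that filter only through KHM-5M with GDC-0994, and SIGLEC15 only through KHM-5M, where their counts are high.

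These proteins act at several contacts between tumour and immune cells. CD274 (PD-L1) and PDCD1LG2 (PD-L2) bind PD-1 on T cells and dampen signalling through the T cell receptor, and interferon gamma induces CD274 in part through IRF1. PVR and NECTIN2 bind TIGIT, an inhibitory receptor of T cells and natural killer (NK) cells, and also the activating receptor CD226. CD47 binds SIRPA on macrophages and blocks engulfment, LGALS9 (galectin 9) binds TIM-3 among other glycoproteins, and CD276 (B7-H3) and SIGLEC15 restrain T cells through receptors that are less well defined.

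The libraries are poly(A) RNA-seq of 2 cell lines from human anaplastic thyroid carcinoma, a tumour that has lost most features of thyroid follicular cells. KHM-5M carries BRAF V600E, which keeps the kinase BRAF active, and was grown in RPMI-1640. TTA-1 is BRAF wild type and was grown in DMEM. Cells of both lines were kept for 24 hours with 1 µM GDC-0994, which inhibits the kinases ERK1 and ERK2, or with its vehicle DMSO, giving 4 groups of 3 libraries. The lines differ in BRAF, in medium and in origin, so a difference between them cannot be told apart from any of these, and each genotype is represented by 1 line. No immune cells were part of these cultures as the labels describe them.

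The libraries held 14952970 to 18389915 counts. The 4 genes listed as a check of ERK output were all lower with GDC-0994 in both lines, at an adjusted p below 0.05 in edgeR. Over all genes 25.1% were lower at that threshold in KHM-5M and 2.24% in TTA-1. Of the 4, DUSP6, a phosphatase of ERK, fell from 33.1 ± 2.91 to 1.89 ± 0.471 CPM (counts scaled to library size, mean ± SD, n = 3) in KHM-5M. In TTA-1 DUSP6 fell from 2.54 ± 0.381 to 0.602 ± 0.534 CPM, a call lost in 2 of 25 alternatives. The thyroid genes TG, TSHR, SLC5A5 and NKX2-1 had at most 12 counts in any group, while PAX8 stood at 210 CPM in KHM-5M DMSO and 3.59 CPM in TTA-1 DMSO. Of 10 blood cell markers, 7 had at most 7 counts in any group, among them PTPRC, which encodes CD45 (0 to 5 counts). The other 3, the myeloid genes CD14, CSF1R and ITGAX, had 105, 164 and 167 counts in KHM-5M with DMSO, and CSF1R fell there with GDC-0994, to 60 counts (-1.47 log2 units, adjusted p = 0.00138). Libraries of 1 group differed by base composition, most in TTA-1 with DMSO and KHM-5M with GDC-0994. Over 9506 genes, the correlation between GC content and the log2 ratio of a library to the others of its group was 0.755 for TTA-1 DMSO replicate 1 and -0.716 for replicate 2. It was 0.612 for KHM-5M GDC-0994 replicate 1 and -0.575 for replicate 3, and between -0.395 and 0.285 for the other libraries.

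Transcript levels of the ligands ranged from 0 to 52.3 FPKM (fragments per kilobase of gene length, scaled to library size), the scale used here to compare genes. In KHM-5M with DMSO the order of mean FPKM (± SD, n = 3) was NECTIN2 (39.7 ± 1.14), PVR (27.5 ± 0.330), SIGLEC15 (17.4 ± 0.312), CD276 (15.3 ± 0.594), CD47 (6.09 ± 0.288), CD274 (1.20 ± 0.224), PDCD1LG2 (1.19 ± 0.194) and LGALS9 (0.0559 ± 0.00527). Only CD274 and PDCD1LG2 overlapped with each other among neighbours in that order. In TTA-1 with DMSO the order was PVR (42.1 ± 2.04), CD276 (17.9 ± 1.78), CD47 (11.7 ± 2.11), NECTIN2 (7.88 ± 2.06), CD274 (1.58 ± 0.165), PDCD1LG2 (0.948 ± 0.110), LGALS9 (0.0183 ± 0.0170) and SIGLEC15 (0.0177 ± 0.0176), where only the last pair overlapped. The TTA-1 order was the same with GDC-0994. In KHM-5M with GDC-0994, SIGLEC15 moved from the third place to the sixth (0.880 ± 0.134), where its libraries overlapped with those of PDCD1LG2 (0.861 ± 0.248).

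**Figure D1:**
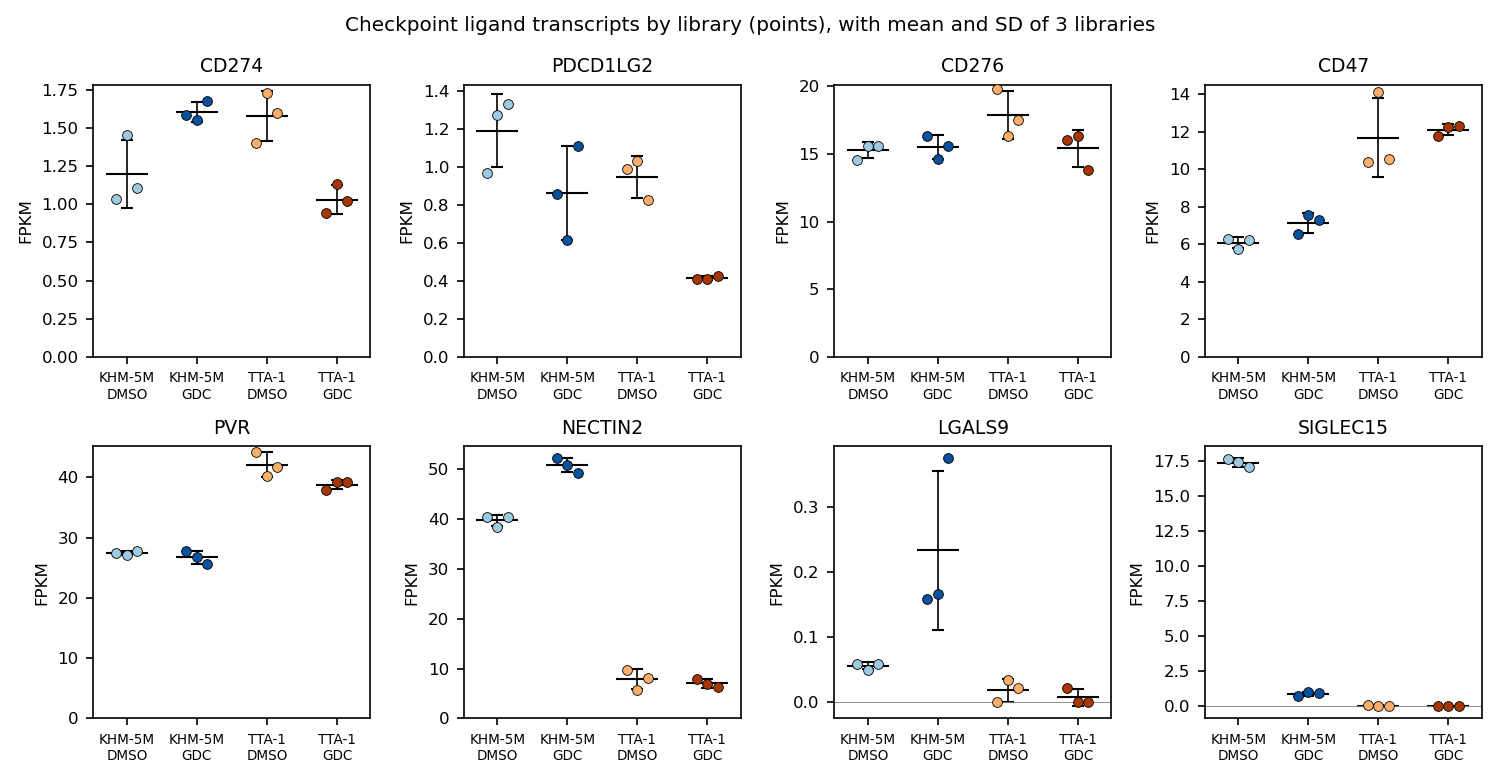
FPKM (linear axes from 0) of the 8 checkpoint ligands in each library (points), by line and treatment, with the mean (wide bar) and SD (error bar) of 3 libraries. SIGLEC15 drops from a mean of 17.4 to 0.880 in KHM-5M, NECTIN2 has a mean of 39.7 in KHM-5M and 7.88 in TTA-1 with DMSO, and CD274 lies higher with GDC-0994 in KHM-5M and lower with GDC-0994 in TTA-1.

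The comparison of GDC-0994 with DMSO within each line asked which ligand transcripts respond to ERK inhibition. Of the 6 ligands that passed the filter on low counts in every group, 1 rose in KHM-5M (NECTIN2) and none fell at an adjusted p below 0.05 in edgeR's quasi-likelihood test, while 49.8% of all genes tested were called, 24.6% higher and 25.1% lower. None of the 6 was lower at an unadjusted p under 0.05 (0), or called lower by DESeq2 or limma. SIGLEC15 was called lower in KHM-5M and LGALS9 higher, but LGALS9 entered the test only through the treated group, where it is high, so its direction is not counted here. The median log2 fold change of the 6 was 0.10, against 0.02 over all genes tested. Of the 6, 3 were called in KHM-5M (CD274, CD47 and NECTIN2) when TTA-1 DMSO replicate 1 or 2 was left out. The number was 0 without KHM-5M DMSO replicate 1 or 3 or GDC-0994 replicate 1 or 2. Without KHM-5M GDC-0994 replicate 3 it was 1, PDCD1LG2, which was called lower (-0.69, adjusted p = 0.0412).

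In TTA-1 1 of the 6 fell (PDCD1LG2) and none rose in edgeR, with 0 higher at an unadjusted p under 0.05 and 0 in DESeq2 or limma, while 3.43% of all genes were called, 1.18% higher and 2.24% lower. The number called was 4 without TTA-1 DMSO replicate 2, 2 without KHM-5M DMSO replicate 2, and 0 without TTA-1 DMSO replicate 1 or any single TTA-1 GDC-0994 library. The median of the 6 in TTA-1 was -0.19, against 0.01 over all genes. LGALS9 and SIGLEC15 had at most 5 counts per group there. The difference between the effects in the lines (KHM-5M minus TTA-1) was called for CD274 alone among the 6, while 27.9% of all genes were called. It was called for 3 of the 6 without TTA-1 DMSO replicate 2 (CD274, CD276 and NECTIN2) and for 2 without TTA-1 GDC-0994 replicate 1 (CD274 and NECTIN2).

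**Figure D2:**
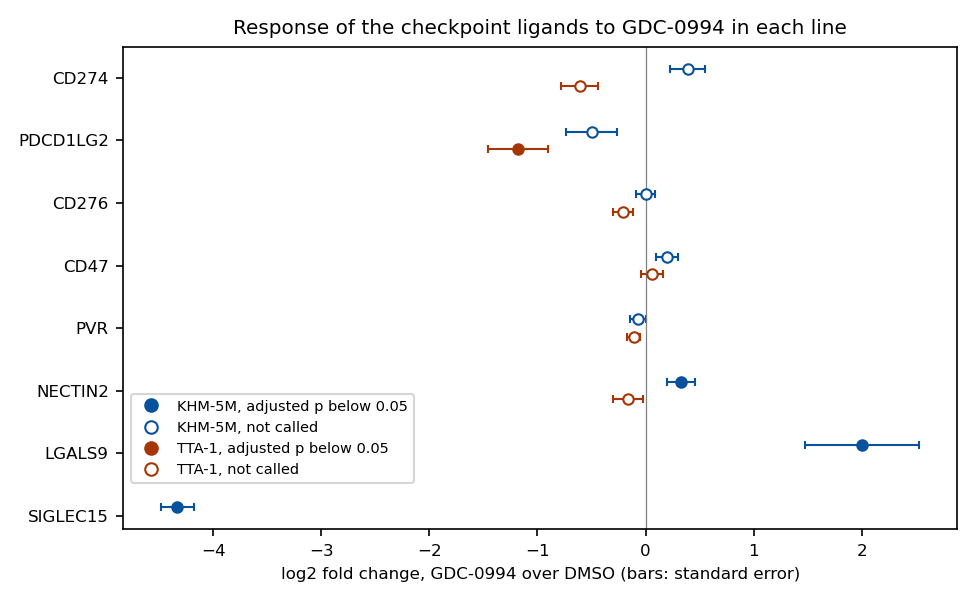
Log2 fold change of GDC-0994 over DMSO (points, with the standard error as bars) for each ligand in KHM-5M and TTA-1, filled where the adjusted p is below 0.05. CD274 lies at 0.39 in KHM-5M and at -0.61 in TTA-1, SIGLEC15 at -4.33 in KHM-5M, and LGALS9 and SIGLEC15 have no TTA-1 point because at most 5 counts support them there.

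CD274 (ENSG00000120217; chromosome 9, 5450503 to 5470566, plus strand, GRCh38) encodes PD-L1. In the edgeR test, CD274 alone among the 6 ligands that passed the filter in every group was called for the difference between the lines. The FPKM in KHM-5M were 1.04, 1.46 and 1.11 with DMSO and 1.59, 1.55 and 1.68 with GDC-0994. Every treated library lay above every control, but the log2 fold change of 0.39 ± 0.16 (± SE) missed the threshold narrowly (adjusted p = 0.0516). It passed without the highest control, DMSO replicate 2 (0.58, adjusted p = 0.0116), without any single TTA-1 library (adjusted p 0.0308 to 0.0456), and in 15 of 25 alternatives in all (adjusted p 0.0116 to 0.151). In TTA-1 the FPKM were 1.40, 1.73 and 1.60 with DMSO and 0.940, 1.13 and 1.02 with GDC-0994, so that every treated library lay below every control. That log2 fold change was -0.61 ± 0.17 (adjusted p = 0.0558), which passed without TTA-1 DMSO replicate 2 (-0.57, adjusted p = 0.0450), without KHM-5M DMSO replicate 2 (-0.62, adjusted p = 0.0427), and in 7 of 25 alternatives (adjusted p 0.0106 to 0.171).

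The test of the difference itself passed for CD274. The effect in KHM-5M, above 0, minus that in TTA-1, below 0, was 1.00 ± 0.23 log2 units (adjusted p = 0.00346), and the call held in each of the 24 alternatives run, with adjusted p from 0.000318 to 0.0117 and values from 0.59, on the log2(FPKM + 1) scale, to 1.20. The lines changed places with treatment. With DMSO, CD274 was lower in KHM-5M than in TTA-1 (-0.42 ± 0.16, adjusted p = 0.0262), although 1 KHM-5M library overlapped with the TTA-1 range. With GDC-0994 it was higher in KHM-5M (0.58 ± 0.17, adjusted p = 0.00390), with no overlap, and at 1.23 once the trend of each library with GC content and length was removed. The DMSO difference was lost in 10 of 25 alternatives, among them those that left out a KHM-5M control (replicate 1, adjusted p = 0.111, or 3, 0.0841) or a TTA-1 control (replicate 2, 0.0753, or 3, 0.0605), and turned to 0.09 with that trend removed. These comparisons share libraries, so they are not separate observations. CD274 rested on 262 and 349 counts over the 3 libraries of KHM-5M with DMSO and GDC-0994, and on 310 and 194 in TTA-1.

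The stretch upstream of CD274 is shown because it holds matches to the motifs of the interferon response, with the matches in capitals. It is the reference sequence before the start in both RefSeq (GRCh38.p14) and the deposited table, chr9:5450292-5450502, plus strand, 5′ to 3′.
CD274: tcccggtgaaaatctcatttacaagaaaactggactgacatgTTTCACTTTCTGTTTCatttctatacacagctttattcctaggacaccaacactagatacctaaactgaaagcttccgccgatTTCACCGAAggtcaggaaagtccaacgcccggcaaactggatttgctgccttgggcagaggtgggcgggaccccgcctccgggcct
The first run of capitals holds 2 overlapping matches, TTTCACTTTC and TTTCTGTTTC, to the interferon-stimulated response element (GAAA and GAAA with 2 bases between them, either strand), which begin 208 and 202 bases before the RefSeq start. The other is TTCACCGAA, a match to the interferon-gamma activated site (TTCNNNGAA), 125 bases before it. Of 35116 promoter windows of 250 bases in the same table, 3.02% hold the first motif and 6.57% the second. Among the 8 windows of 7 ligands, CD274's was the only one with either motif, and PDCD1LG2 had no window. None of the 8 held the AP-1 motif (TGANTCA, 6.57% of all windows) or the ETS motif (CCGGAAGT, 3.42%), and 6 held the NF-kB motif (GGGA and CC with 4 bases between them, 22.6%). These are letter matches, not measured binding.

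PDCD1LG2 (ENSG00000197646; chromosome 9, 5510570 to 5571254) encodes PD-L2 and lies 40.0 kb beyond CD274 on the same strand. It fell in TTA-1, from FPKM of 0.991, 1.03 and 0.824 with DMSO to 0.408, 0.409 and 0.428 with GDC-0994, with no overlap. The log2 fold change was -1.18 ± 0.28 (adjusted p = 0.0281), from 107 counts to 45. The call was lost without TTA-1 DMSO replicate 1 (adjusted p = 0.0814), without GDC-0994 replicate 1 (0.0706), 2 (0.0911) or 3 (0.0973), and in 7 of 24 alternatives (adjusted p 0.00780 to 0.239). In KHM-5M the FPKM were 0.971, 1.28 and 1.33 with DMSO and 0.859, 0.614 and 1.11 with GDC-0994, which overlap. The log2 fold change there was -0.50 ± 0.24 (adjusted p = 0.0943), which passed without GDC-0994 replicate 3 (-0.69, adjusted p = 0.0412). The difference between lines was 0.68 ± 0.37 (adjusted p = 0.201). With GDC-0994, PDCD1LG2 was higher in KHM-5M than in TTA-1 (0.99 ± 0.28, adjusted p = 0.00437), while with DMSO the value was 0.31 ± 0.24 (adjusted p = 0.253). With the GC and length trend removed these were 1.72 and 0.87, and the value with DMSO was called (adjusted p = 0.00279).

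The genes beside the PD-1 ligands did not move as a block. PLGRKT, a plasminogen receptor gene 12.6 kb before CD274, fell in KHM-5M (-0.73, adjusted p = 0.000292), and RIC1, which acts in trafficking at the Golgi and lies 158.5 kb beyond CD274, rose (0.93, adjusted p = 5.94e-06). Neither was called in TTA-1 (0.02, adjusted p = 0.984, and 0.33, adjusted p = 0.152).

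CD276 (ENSG00000103855; chromosome 15, 73683966 to 73714518) encodes B7-H3 and stood between 13.8 and 19.8 FPKM in every library. The FPKM were 14.6, 15.6 and 15.6 in KHM-5M with DMSO and 16.4, 14.6 and 15.6 with GDC-0994, which overlap. The log2 fold change was -0.00 ± 0.09 (adjusted p = 0.983), and its sign turned in 20 of 25 alternatives without a call in any of them. In TTA-1 the FPKM were 19.8, 16.3 and 17.5 with DMSO and 16.1, 16.3 and 13.8 with GDC-0994 (-0.21 ± 0.09, adjusted p = 0.235), and it was called without TTA-1 DMSO replicate 2 (-0.30, adjusted p = 0.0233), as was the difference between lines (0.32, adjusted p = 0.0406, against 0.21 ± 0.13 and 0.257 with all libraries). With DMSO it was lower in KHM-5M than in TTA-1 (-0.25 ± 0.09, adjusted p = 0.0177). That call was lost when DMSO replicate 1 of TTA-1 (adjusted p = 0.104) or of KHM-5M (0.0773) was left out, and under upper quartile scaling (0.130) or library totals (0.128), while removing the GC and length trend gave -0.99 (adjusted p = 3.43e-12). With GDC-0994 the lines overlapped (-0.04 ± 0.09, adjusted p = 0.662), but the value was -0.85 (adjusted p = 4.51e-11) with that trend removed.

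CD47 (ENSG00000196776; chromosome 3, 108043094 to 108091862, minus strand) encodes the signal that inhibits engulfment, and its transcript was lower in KHM-5M than in TTA-1. The FPKM in KHM-5M were 6.27, 5.76 and 6.24 with DMSO and 6.57, 7.55 and 7.31 with GDC-0994. In TTA-1 they were 10.4, 14.1 and 10.6 with DMSO and 11.8, 12.3 and 12.3 with GDC-0994. Every KHM-5M library lay below every TTA-1 library, by -0.96 ± 0.10 with DMSO (adjusted p = 2.53e-07) and -0.82 ± 0.10 with GDC-0994 (adjusted p = 1.51e-06). These values shrank to -0.37 (adjusted p = 6.68e-05) and -0.17 (adjusted p = 0.0314) with the GC and length trend removed. Within KHM-5M the treated libraries all lay above the controls, with 0.20 ± 0.10 log2 units (adjusted p = 0.120), a difference that passed without TTA-1 DMSO replicate 1 (0.24, adjusted p = 0.0391) or 2 (0.23, adjusted p = 0.0105). In TTA-1 the treatment groups overlapped (0.06 ± 0.10, adjusted p = 0.835). The high TTA-1 DMSO library is replicate 2, whose ratios fell with GC content, and CD47, with a GC content of 38.3%, is in the lowest 4.88% of tested genes. Whether base composition accounts for the high CD47 value in that library was not tested.

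SIRPA, the receptor of CD47 on macrophages, was itself transcribed in these tumour cells and fell in KHM-5M from 62.8 ± 3.004 to 19.2 ± 1.37 CPM (-1.70 ± 0.11, adjusted p = 1.51e-09). In TTA-1 it had 7.03 CPM with DMSO and 5.97 CPM with GDC-0994 (-0.24, adjusted p = 0.421), and the difference between lines was called (-1.47 ± 0.18, adjusted p = 8.77e-06). THBS1, a secreted partner of CD47, was not called in KHM-5M (-0.06 ± 0.08) or in TTA-1 (0.16). The other 9 of 11 receptors and partners listed for these ligands were not tested. Among these, PVRIG, which binds NECTIN2, had 13 counts with DMSO and 51 with GDC-0994 in KHM-5M and at most 9 in TTA-1. The other 8 had at most 9 counts in any group, PDCD1, which encodes PD-1, at most 8 and TIGIT at most 1.

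PVR (ENSG00000073008; chromosome 19, 44643798 to 44663583) encodes CD155 and was the ligand with the highest FPKM in TTA-1. The FPKM were 27.4, 27.2 and 27.8 in KHM-5M with DMSO and 27.8, 26.8 and 25.7 with GDC-0994, which overlap, while on CPM every treated library (90.77 to 96.45) lay below every control (96.88 to 99.76). The log2 fold change was -0.07 ± 0.07 (adjusted p = 0.427), and 0.13 (adjusted p = 0.0378) with the GC and length trend removed. In TTA-1 they were 44.3, 40.3 and 41.8 with DMSO and 37.9, 39.2 and 39.2 with GDC-0994. The treated TTA-1 libraries all lay below the controls, but the fold change did not pass (-0.11 ± 0.06, adjusted p = 0.386), and the difference between lines was 0.05 ± 0.09 (adjusted p = 0.758). PVR was lower in KHM-5M than in TTA-1 with DMSO (-0.64 ± 0.07, adjusted p = 1.15e-07) and with GDC-0994 (-0.59 ± 0.07, adjusted p = 2.69e-07), at -1.09 and -0.94 with that trend removed. An antisense feature, AC243964.2, and CEACAM19 overlap the gene, with at most 72 and 38 counts in a library, and reads could not be assigned by strand.

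NECTIN2 (ENSG00000130202; chromosome 19, 44846175 to 44889228) encodes CD112, lies 182.6 kb beyond PVR and went the other way between the lines. The FPKM in KHM-5M were 40.4, 38.4 and 40.4 with DMSO and 52.3, 50.9 and 49.3 with GDC-0994. In TTA-1 they were 9.79, 5.70 and 8.16 with DMSO and 7.99, 6.86 and 6.199 with GDC-0994. KHM-5M lay far above TTA-1, by 2.31 ± 0.14 log2 units with DMSO (adjusted p = 1.31e-10) and 2.80 ± 0.14 with GDC-0994 (adjusted p = 9.63e-12). NECTIN2 was higher by 1.62 and 2.09 with the GC and length trend removed. In KHM-5M it rose with GDC-0994, with no overlap (0.33 ± 0.13, adjusted p = 0.0426). That call was lost without any single KHM-5M library (adjusted p 0.0513 to 0.103) and with limma on FPKM in each of its 3 settings (0.0590 to 0.126).

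In TTA-1 the NECTIN2 groups overlapped (-0.16 ± 0.14, adjusted p = 0.599). The low control is TTA-1 DMSO replicate 2, and NECTIN2 has a GC content of 61.2%. Whether base composition accounts for the low value in that library was not tested. Without that library NECTIN2 was called lower (-0.37, adjusted p = 0.0160). The difference between lines, 0.49 ± 0.19 (adjusted p = 0.0675) with all libraries, was then called as well (0.73, adjusted p = 0.000144). The difference was also called without TTA-1 GDC-0994 replicate 1 (0.64, adjusted p = 0.0354) and in 9 of 24 alternatives.

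Several genes around NECTIN2 moved more than it did in KHM-5M. TOMM40, a subunit of the mitochondrial import pore that starts 1.34 kb beyond NECTIN2, fell (-1.43, adjusted p = 8.96e-08), while APOE, an apolipoprotein 16.5 kb beyond it, rose (1.39, adjusted p = 5.26e-06). BCAM, a cell adhesion molecule 24.8 kb before it, rose as well (1.53, adjusted p = 2.90e-09). TOMM40 and BCAM were not called in TTA-1 (-0.27, adjusted p = 0.289, and -0.11, adjusted p = 0.813).

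LGALS9 (ENSG00000168961; chromosome 17, 27629798 to 27649560) encodes galectin 9 and was higher with GDC-0994 in KHM-5M, from a very low level. It passed the filter only through these treated libraries, so the test below is of a gene that was let in by its high group. The counts were 6, 5 and 6 with DMSO and 17, 17 and 35 with GDC-0994, or FPKM of 0.0588, 0.0498 and 0.0590 against 0.159, 0.166 and 0.374. The treated libraries all lay above the controls, and the log2 fold change was 2.00 ± 0.53 (adjusted p = 0.00520). It was 1.52 without the highest treated library, GDC-0994 replicate 3 (adjusted p = 0.0407), and the call held in each of the 22 alternatives that could give a value, the fit with no filter among them. Their values ran from 0.22 to 2.22, not all on 1 scale. These alternatives share libraries, so they are not separate observations. In TTA-1 there were 5 counts with DMSO and 2 with GDC-0994 over 3 libraries, a ratio of 0.418 (95% counting interval 0.0398 to 2.55). With GDC-0994 KHM-5M had 69 counts and TTA-1 2, a ratio of 28.7 per scaled library size (95% interval 7.66 to 242.0), and with DMSO 17 and 5, a ratio of 3.01 (1.06 to 10.4) that was not called (adjusted p = 0.109). These intervals cover counting error only. LGALS9 has near-identical copies to which reads could be split: LGALS9B had 0 and 3 counts in KHM-5M with DMSO and GDC-0994, and LGALS9C 5 and 6.

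SIGLEC15 (ENSG00000197046; chromosome 18, 45825512 to 45844080) encodes a sialic acid binding lectin that inhibits T cells, and showed the largest response of the 8. The counts in KHM-5M were 1137, 1103 and 1093 with DMSO and 49, 63 and 55 with GDC-0994, or FPKM of 17.7, 17.5 and 17.1 against 0.728, 0.978 and 0.933. The treated libraries lay far below the controls, with a log2 fold change of -4.33 ± 0.15 (adjusted p = 4.93e-12), and the call held in each of the 25 alternatives (-4.42 to -3.29). TTA-1 had 2, 1 and 0 counts with DMSO and 0, 0 and 0 with GDC-0994, too few for a fold change. With DMSO, SIGLEC15 had 3333 counts in KHM-5M and 3 in TTA-1, a ratio of 982 per scaled library size (95% counting interval 336 to 4764). With GDC-0994 it had 167 counts in KHM-5M and 0 in TTA-1, at least 46.4-fold higher against a floor of 3 counts over the TTA-1 group.

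The upstream stretch of SIGLEC15 is shown because this ligand changed most. It lies at chr18:45825425-45825511, plus strand, before the start in both RefSeq (GRCh38.p14) and the deposited table, and is printed in lower case because none of the 5 motifs searched matches in it.
SIGLEC15: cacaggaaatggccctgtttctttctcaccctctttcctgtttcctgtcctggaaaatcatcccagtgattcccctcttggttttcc
The 250 bases before the RefSeq start hold 1 NF-kB match, GGGAGGGCCC, 12 bases before that start. Beside the gene, EPG5, an autophagy factor 3.53 kb beyond it, was not called in KHM-5M (0.19, adjusted p = 0.137) and fell in TTA-1 (-0.58, adjusted p = 0.00407). SLC14A1, a urea transporter 73.0 kb before it, fell in KHM-5M (-2.12, adjusted p = 1.21e-06).

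In the comparison of the lines, 5 of the 6 ligands that passed the filter in every group were called with DMSO, 1 higher in KHM-5M (NECTIN2) and 4 lower (CD274, CD276, CD47 and PVR), while 76.5% of all genes tested were called, 39.6% higher and 36.8% lower. With GDC-0994 5 of the 6 were called, 3 higher (CD274, PDCD1LG2 and NECTIN2) and 2 lower (CD47 and PVR), while 80.1% of all genes were called, 41.0% higher and 39.1% lower. Both shares are near the background of their comparison. LGALS9 and SIGLEC15 passed the filter only through KHM-5M, so their direction between the lines was set by it.

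Transcripts with a pattern like that of a ligand were found by Pearson's r of log2(CPM + 1) over the 12 libraries, which mostly follows the 4 group means and is given as a description. For SIGLEC15 they were NTM (r = 0.997), PLAU, the urokinase gene (0.997), and SPRY2, a feedback inhibitor of receptor signalling (0.996). For CD274 they were COA5 (0.824), DUSP1, a phosphatase of MAP kinases (0.814), and ZNF783 (0.805). PDCD1LG2 was most like FRMD8 (0.875), NECTIN2 most like FKBP8 (0.998), CD47 most like CDC42SE2 (0.994), LGALS9 most like HID1 (0.961) and CD276 most like TYSND1 (0.935).

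Other genes of the checkpoint and costimulatory families, not all of them ligands, changed in KHM-5M in both directions. Of 28 listed, 15 were tested, of which 5 rose, 8 fell and 2 were not called, with a median log2 fold change of -0.43 against 0.02 over all genes, of which 49.8% were called. CD24 and CD40 passed the filter on low counts only through KHM-5M. CD24 passed only through the treated libraries, where it is high, so the filter favoured its rise. VSIR, which encodes the checkpoint protein VISTA, rose from 19.3 ± 1.40 to 100.2 ± 12.03 CPM (2.38 ± 0.11, adjusted p = 1.70e-11). CD70, the ligand of CD27, rose from 30.4 ± 1.53 to 79.3 ± 4.87 CPM (1.38 ± 0.10), and TNFSF9, the ligand of the costimulatory receptor 4-1BB, rose from 20.9 ± 1.92 to 49.0 ± 0.486 CPM (1.23 ± 0.12). CD24, a ligand of SIGLEC10 on macrophages, had 8 counts with DMSO and 515 with GDC-0994 (5.90 ± 0.55, adjusted p = 1.26e-07), the group that let it pass the filter. NT5E, which encodes CD73, an enzyme that makes immunosuppressive adenosine, fell from 409 ± 3.89 to 43.2 ± 3.01 CPM (-3.24 ± 0.09, adjusted p = 1.00e-13). NECTIN1, a relative of NECTIN2, fell from 31.9 ± 2.09 to 9.31 ± 1.44 CPM (-1.78 ± 0.12), HMGB1, a chromatin protein that binds TIM-3 when released, fell (-1.02 ± 0.06), and CD40, which was at 0 counts in TTA-1, fell (-1.09 ± 0.10). The fifth riser was LGALS3 (0.50), and the other 4 that fell had values from -1.12 to -0.43, all given after they were seen.

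In TTA-1 1 of these 15 genes fell and none rose in edgeR, with a median of 0.00 (3.43% of all genes called). At an unadjusted p under 0.05, 1 was higher, and 0 were higher in DESeq2 or limma. The 15 and their median include CD40, at 0 counts in TTA-1, and CD24, at 10 counts with DMSO and 3 with GDC-0994. These are too few for a fold change. The gene that fell was NT5E, from 20.8 ± 2.62 to 4.42 ± 0.524 CPM (-2.23 ± 0.12, adjusted p = 7.13e-09). NT5E thus fell in both lines, by 1.01 ± 0.15 log2 units more in KHM-5M (adjusted p = 8.30e-05). Ligands of the NK cell receptor NKG2D included 3 that fell in KHM-5M and none that rose in edgeR among 7 tested of 8, with 0 higher at an unadjusted p under 0.05 and 0 in DESeq2 or limma (median -0.30). Over all genes 49.8% were called in KHM-5M, 25.1% lower. The 3 that fell were MICB (39.7 ± 1.54 to 23.7 ± 2.22 CPM, -0.74 ± 0.09, adjusted p = 1.98e-06), RAET1E (-2.44 ± 0.61, from 50 counts to 9) and ULBP3 (-0.49 ± 0.20, adjusted p = 0.0493, a call lost in 20 of 25 alternatives). RAET1E passed the filter on low counts only through DMSO libraries, where it is high, so the filter favoured its fall. MICA had 42.9 CPM with DMSO and 40.3 CPM with GDC-0994 (adjusted p = 0.623).

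**Figure D3:**
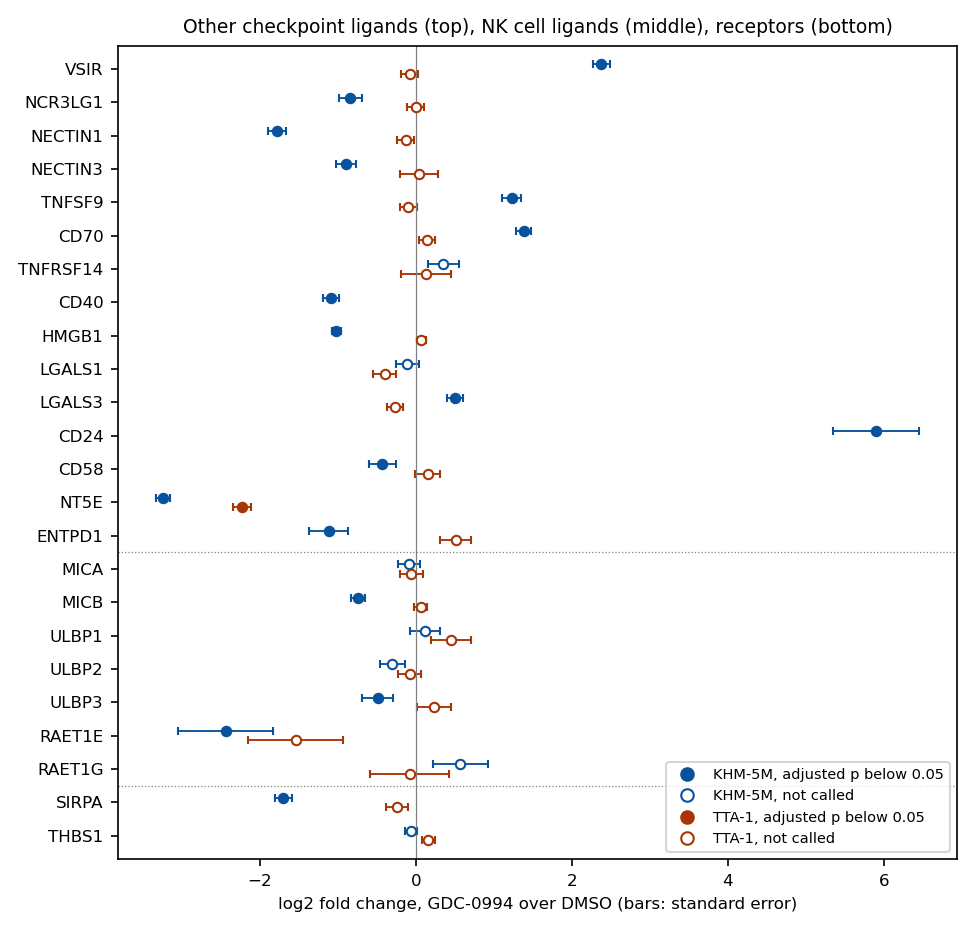
Log2 fold change of GDC-0994 over DMSO (points, with the standard error as bars) for tested members of 3 further lists, in KHM-5M and TTA-1, filled where the adjusted p is below 0.05. In KHM-5M VSIR, CD70, TNFSF9 and CD24 lie to the right and NT5E, NECTIN1 and SIRPA to the left, while NT5E is the only filled TTA-1 point, and CD40 and CD24 have no TTA-1 point because of their low counts there.

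Genes of interferon gamma signalling and other regulators of CD274 transcripts were mixed in KHM-5M: of 16 tested, 6 rose, 5 fell and 5 were not called (median 0.01), beside 49.8% of all genes called. STAT3 (0.56 ± 0.08), the hypoxia factor HIF1A (0.58 ± 0.13) and the receptor subunit IFNGR1 (0.43 ± 0.11) rose. MYC (-0.68 ± 0.09), IRF1, which acts at the CD274 promoter (-0.52 ± 0.10), and the other receptor subunit IFNGR2 (-0.34 ± 0.08) fell. In TTA-1 none rose in edgeR, DESeq2 or limma, with 4 higher at an unadjusted p under 0.05, and 3 fell (median -0.01), beside 3.43% of all genes called: MYC (-0.53 ± 0.09), JUN, an AP-1 subunit (-0.47 ± 0.10), and ZFP36L1, which destabilises AU-rich messages (-0.30 ± 0.07). The ZFP36L1 call was lost in 12 of 25 alternatives and the JUN call in 5. JUN was also called lower in KHM-5M (-0.36, adjusted p = 0.00631), and its difference between lines was not called (0.11, adjusted p = 0.633). IRF1 fell by 0.55 ± 0.15 log2 units relative to TTA-1 (adjusted p = 0.00953).

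Of 18 tested genes that process or stabilise the ligand proteins, 2 rose and 5 fell in KHM-5M (median -0.04), where 49.8% of all genes were called. In TTA-1 none rose or fell in edgeR, DESeq2 or limma, with 1 at an unadjusted p under 0.05. GSK3B, a kinase that marks PD-L1 for degradation, rose (0.41 ± 0.07), as did B3GNT3, which glycosylates PD-L1 (1.01 ± 0.20, 6.07 ± 1.19 to 12.3 ± 0.364 CPM). CDK4 (-0.77 ± 0.08), TRAPPC4 (-0.53 ± 0.09), the oligosaccharyltransferase subunit STT3A (-0.31 ± 0.07) and CMTM4 (-0.28 ± 0.10) fell, the last with a call lost in 13 of 25 alternatives. CMTM6, which keeps PD-L1 at the cell surface, had 127 CPM with DMSO and 138 CPM with GDC-0994 (adjusted p = 0.306). The fifth was QPCTL, the enzyme that modifies CD47 for binding to SIRPA (-0.26, adjusted p = 0.0315), named after its value was seen. Protein was not measured, so none of these values speak to ligand at the cell surface.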

How the data were processed

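The data are 12 RNA-seq libraries, 3 for each line (KHM-5M, TTA-1) and treatment (DMSO, 1 µM GDC-0994, 24 hours). Poly-T beads selected the mRNA and random hexamers primed the cDNA, per the labels' protocols, which name no step that marks strand. Per the submitters' processing notes, the tools were featureCounts 1.5.0-p3, HISAT2 2.0.5 and CASAVA, and the build was GRCh38, with no roles given. The table of raw counts per gene was deposited with whole numbers, and the deposited FPKM equal the count over gene length and over 1 library size, within a relative error of 4.85e-07, 0.975 to 1.08 times the total. The 3 KHM-5M GDC-0994 samples share 1 column label, so their columns were matched by the number in the titles.

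Counts were fitted with edgeR 4.0.16 in R 4.3.3: filterByExpr (minimum count 10, minimum total 15), TMM, glmQLFit and glmQLFTest, 1 mean per group over all 12 libraries, 8 residual degrees of freedom, and Benjamini-Hochberg adjustment over 16218 genes with a call at an adjusted p below 0.05. The standard error is the size of the log2 fold change over the root of F. The procedure was also run on simulated counts that held no line differences and no trends with GC content. That run therefore cannot show how the procedure behaves where these are present. Nothing states that replicates were separate cultures, so p-values measure the spread between libraries, which may be technical. Replicate numbers were not taken as pairs: the correlation of same-numbered libraries ranged from -0.145 to 0.00293 in KHM-5M and from -0.138 to 0.276 in TTA-1.

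The ligands and the lists were chosen with earlier results of these data known. The rule names all 8 ligands, the 3 most alike genes of each, and up to 4 risen and 4 fallen genes per list by smallest p, and some of the genes it names are not reported here. Lists covered other checkpoint and costimulatory genes, NKG2D ligands, receptors, regulators of CD274, protein processing and ERK output. They also covered markers of thyroid, epithelial, mesenchymal, blood and endothelial cells. Alternatives were the Wald test and the size factors of DESeq2 1.42.0, upper quartile scaling, library totals, no filter, a stricter filter (mean count 50 and 1 CPM in 3 libraries), a replicate block, a fit of the compared groups only, each library left out, and limma 3.58.1 on log2(FPKM + 1), unfiltered or filtered at 1 FPKM, and on log2(FPKM + 0.1). Removing the GC and length trend of each library, and leaving out TTA-1 DMSO replicates 1 and 2 together, were chosen after seeing the data.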

Additional observations from a re-analysis of the deposited data

Results flagged for a closer look

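The effect of GDC-0994 differed between the lines for CD274 and for further genes named from the lists or beside the ligands, by edgeR's quasi-likelihood test of the difference (KHM-5M minus TTA-1, log2 units), while 27.9% of all genes tested were called. CD274, the gene of PD-L1, differed by 1.00 (adjusted p = 0.00346), with all 3 treated libraries above the controls in KHM-5M and all 3 below them in TTA-1. Within each line its effect was not called (adjusted p = 0.0516 in KHM-5M and 0.0558 in TTA-1).

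Among the genes of the ligand and receptor lists, the difference was 2.45 for VSIR, 1.33 for TNFSF9 and 1.24 for CD70. It was -1.65 for NECTIN1, -1.47 for SIRPA, -1.09 for HMGB1, -1.01 for NT5E and -0.80 for MICB. Each of these 8 calls held in the 24 alternatives run.

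Among regulators of CD274 transcripts the difference was 0.45 for ZFP36L1, 0.36 for STAT3 and -0.55 for IRF1. Among genes of protein processing it was 1.59 for B3GNT3 (lost in 10 of 24), -0.70 for CDK4, -0.61 for TRAPPC4 and -0.31 for STT3A (lost in 11 of 24).

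Of the other genes named, the difference was -2.06 for DUSP6, -0.83 for PAX8, -2.95 for CSF1R, which had 5 and 14 counts in TTA-1, and 0.77 for LGALS3. Beside the ligands it was -0.74 for PLGRKT, 0.60 for RIC1, -1.17 for TOMM40, 1.64 for BCAM and 0.77 for EPG5.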

How the results depend on the processing

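Limits are the low counts of LGALS9, PDCD1LG2 and CD274 and the trends with GC content in TTA-1 DMSO and KHM-5M GDC-0994. SIGLEC15 in KHM-5M and the CD274 difference kept their calls in every alternative run. The line differences of CD47, PVR and NECTIN2 did too, but their values moved with the GC and length trend removed. CD47 moved from -0.96 to -0.37 with DMSO and from -0.82 to -0.17 with GDC-0994. PVR moved from -0.64 to -1.09 with DMSO and from -0.59 to -0.94 with GDC-0994. NECTIN2 moved from 2.31 to 1.62 with DMSO and from 2.80 to 2.09 with GDC-0994. Upper quartile scaling and library totals moved the median of all genes in the line comparisons from 0.03 to 0.13 and 0.13 with DMSO, and from 0.04 to 0.20 and 0.17 with GDC-0994. Signs of uncalled values turned in 20 of 25 alternatives for CD276 in KHM-5M and in 13 of 25 for its line comparison with GDC-0994. Removing the GC and length trend reversed PVR in KHM-5M (0.13 against -0.07, adjusted p = 0.0378) and CD274 between the lines with DMSO (0.0885 against -0.42). The cause was not tested. LGALS9 and SIGLEC15 were not carried through the alternatives in TTA-1, where they have at most 5 counts per group.

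Of the 8 ligands, 3 were called in KHM-5M, against 5 with upper quartile scaling and 5 with the trend removed, and 2 to 5 with 1 library left out. In TTA-1 1 was called, against 2 with the DESeq2 Wald test, no filter, limma on log2(FPKM + 1) with its filter or the trend removed, 0 with only the TTA-1 libraries, with limma without a filter or without TTA-1 DMSO replicates 1 and 2, and 0 to 4 with 1 library left out. For the difference 1 was called, against 2 with DESeq2 size factors, upper quartile scaling, the Wald test, no filter, each of 3 limma settings, the trend removed or without both TTA-1 DMSO libraries, and 1 to 3 with 1 library left out. The limma calls add SIGLEC15, which has at most 3 counts per group in TTA-1. Between the lines 4 to 6 were called with DMSO and 7 in each case with GDC-0994 when 1 library was left out. In the fit of all 12 libraries the shares of all genes called were 49.8% in KHM-5M, 3.43% in TTA-1 and 27.9% for the difference. They were 76.5% between the lines with DMSO and 80.1% with GDC-0994. The counts of the 8 include LGALS9 and SIGLEC15, which passed the filter only through KHM-5M. Of the other 6, 1 was called in KHM-5M, and between the lines 5 with DMSO and 5 with GDC-0994.

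Over all genes in TTA-1, 556 were called, against 915 with the Wald test, 1206 with no filter, 206 with only the TTA-1 libraries, 341 with limma without a filter, 1026 with the trend removed, and 259 to 2620 with 1 library left out. With 1 library left out, the counts over all genes were 7018 to 9008 in KHM-5M, 3768 to 5186 for the difference, 11986 to 12681 between lines with DMSO and 12674 to 13550 with GDC-0994.

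With a replicate block, 2 ligands were called for the difference in place of 1, because NECTIN2 passed (0.47, adjusted p = 0.0382), and no other call among the 8 changed. The numbers pair nothing stated, and same-numbered libraries did not deviate together in a consistent way. Their highest correlation was 0.276, for replicate 1 of TTA-1, while differently numbered TTA-1 libraries ran from -0.411 to 0.414.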
